A study of Homo sapiens with 9 samples.

Results

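The genes described here carry glucose into the cell and break it down to pyruvate and lactate, together with a few that control these steps. They were taken from a list of 41 genes, and each was read from the probe sets of the array whose only gene symbol is that gene. Of the 41 genes, 39 were measured, by 93 probe sets, of which 3 are control probe sets for GAPDH. The array held 19775 genes, and 41097 probe sets with 1 symbol, of which 6 are control probe sets. The lactate carriers SLC16A1 and SLC16A3 are not analysed here. The cells were Hec50, an established line from an aggressive endometrial cancer, grown in medium with serum. Total RNA was hybridised to Affymetrix arrays, which measure many transcripts by short fixed probes. There were 3 groups of 3 arrays: mock transfected cells, cells given a scrambled negative control RNA at 60 nM for 48 hours, and cells given a miR-200c mimic at the same dose and time. No dose or time stands in the labels for the mock cells. All groups are 1 cell line, and a mimic delivered by transfection is a model of added miR-200c, not of the level a cell makes itself. Whether the replicates were grown apart is not stated, and the p-values may therefore reflect technical spread only.

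Glucose enters through transporters of the SLC2A (GLUT) family and is trapped by hexokinases as glucose 6-phosphate. Phosphofructokinase then commits it to glycolysis, and the PFKFB enzymes set the pace of that step by making or removing fructose 2,6-bisphosphate. The lower enzymes yield ATP and pyruvate, which lactate dehydrogenase turns into lactate or pyruvate dehydrogenase sends to the mitochondrion. HIF1A encodes the oxygen-regulated subunit of a transcription factor that switches on many of these genes, and TXNIP, which glucose itself induces, restrains glucose uptake. Many tumours, endometrial cancers among them, take up much glucose and release lactate.

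The microRNA added to the cells acts on transcripts that pair with its seed. The mature sequence below is shown because every comparison with the mimic rests on it. The labels do not give the mimic's sequence, so the strand shown is the mature strand of the 3' arm from RefSeq, at chr12:6963742-6963764 on the plus strand of GRCh38.p14, with its seed, bases 2 to 8, in capitals.
hsa-miR-200c-3p: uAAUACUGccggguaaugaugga
The same seed is carried by 3 mature human miRNAs in that table, which are miR-200b-3p, miR-200c-3p and miR-429. No transcript sequences were used here, so no member was searched for a site.

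The values are differences on the log2 scale. The deposited table is centred on the median of the 9 arrays for each probe set, so it gives no levels, and a value of 0 is that gene's middle array. The base of the logarithm was taken as 2. A coarse level class was read from the rounding of the stored numbers: 28 of the 39 genes lay at 8 or more on this scale, 10 lay from 4 to 8, and SLC2A4, the insulin-responsive transporter of muscle and fat, lay below 4. Each gene's value is an average over those of its probe sets, control probe sets left out, that fall in the uppermost class it reaches. A gene was called higher or lower when limma's two-sided test on all 9 arrays gave a Benjamini-Hochberg adjusted p under 0.05 over all 19775 genes. Of 12 epithelial markers of the endometrium, 6 lay at 8 or more, against 1 of 6 leukocyte, 0 of 8 endothelial and 3 of 8 fibroblast and stromal markers. PAX8, KRT8, KRT18 and EPCAM were among the former and ESR1 and PGR were not. Against the scrambled control 4 of the 12 epithelial markers were called higher (33.3%, where 7.65% of all genes were) and 1 lower (8.33%, where 7.02% were). Those higher were EPCAM by 1.06, MUC1 by 0.61, KRT8 by 0.51 and KRT18 by 0.50. The median of the 12 was -0.015, and 6 lay below 0. With the mimic against mock 3 of the 12 were higher (25%, where 8.42% of all genes were) and 3 lower (25%, where 10.3% were). KRT8 did not pass there (0.25, adjusted p = 0.0606 in limma). Of the 8 stromal markers 1 (ACTA2) was lower against the scrambled control (12.5%, where 7.02% of all genes were). With the mimic against mock 2 were lower (25%, where 10.3% of all genes were). In such bulk RNA, fewer cells of a kind and less RNA per cell cannot be told apart.

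Among the 39 genes, the glucose transporter SLC2A3 showed the largest change in both comparisons with the mimic. Against the scrambled control 5 of 39 genes were higher (12.8%, where 7.65% of all genes were), namely SLC2A3, SLC2A1, PFKFB2, PFKFB4 and TXNIP. SLC2A10 and HIF1A, 2 of 39 (5.13%, where 7.02% of all genes were), were lower, and 32 did not pass. The median change of the 39 was -0.02, beside -0.01 over all genes. Against mock 3 of 39 were higher (7.69%, background 8.42%), namely SLC2A3, SLC2A1 and ALDOC, and 10 were lower (25.6%, background 10.3%). The latter included 3 of 6 enzymes of hexose and hexose phosphates and 4 of 9 enzymes of lower glycolysis. The median change there was -0.07, beside 0.01 over all genes. The scrambled control against mock, a comparison without the mimic, had no gene called higher (background 2.84%, 1 of the 39 at an unadjusted p under 0.05 in limma) and 6 lower (15.4%, background 5.32%). Its median was also -0.07, beside 0.02 over all genes. The comparisons share their groups, so their calls are not independent of each other.

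Genes in the upper level class were called more often over the whole array, and most of the 39 genes are in that class. Among the 8193 genes at 8 or more, 17.1% were called lower in the mimic than in mock, and 8 of the 28 genes of the group at that level were. Against the scrambled control 11.2% of such genes were called higher and 11.7% lower, and of the 28 there were 2 higher and 1 lower. In the scrambled control against mock 9.48% of such genes were lower and 4 of the 28 were. Counted by probe set, the mimic against the scrambled control gave 10 of 93 higher (background 5.63%) and 2 lower (background 5.25%). The mimic against mock gave 7 higher (background 6.25%) and 17 lower (background 8.45%). The scrambled control against mock gave 1 higher (background 1.82%) and 10 lower (background 3.92%).

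**Figure D1:**
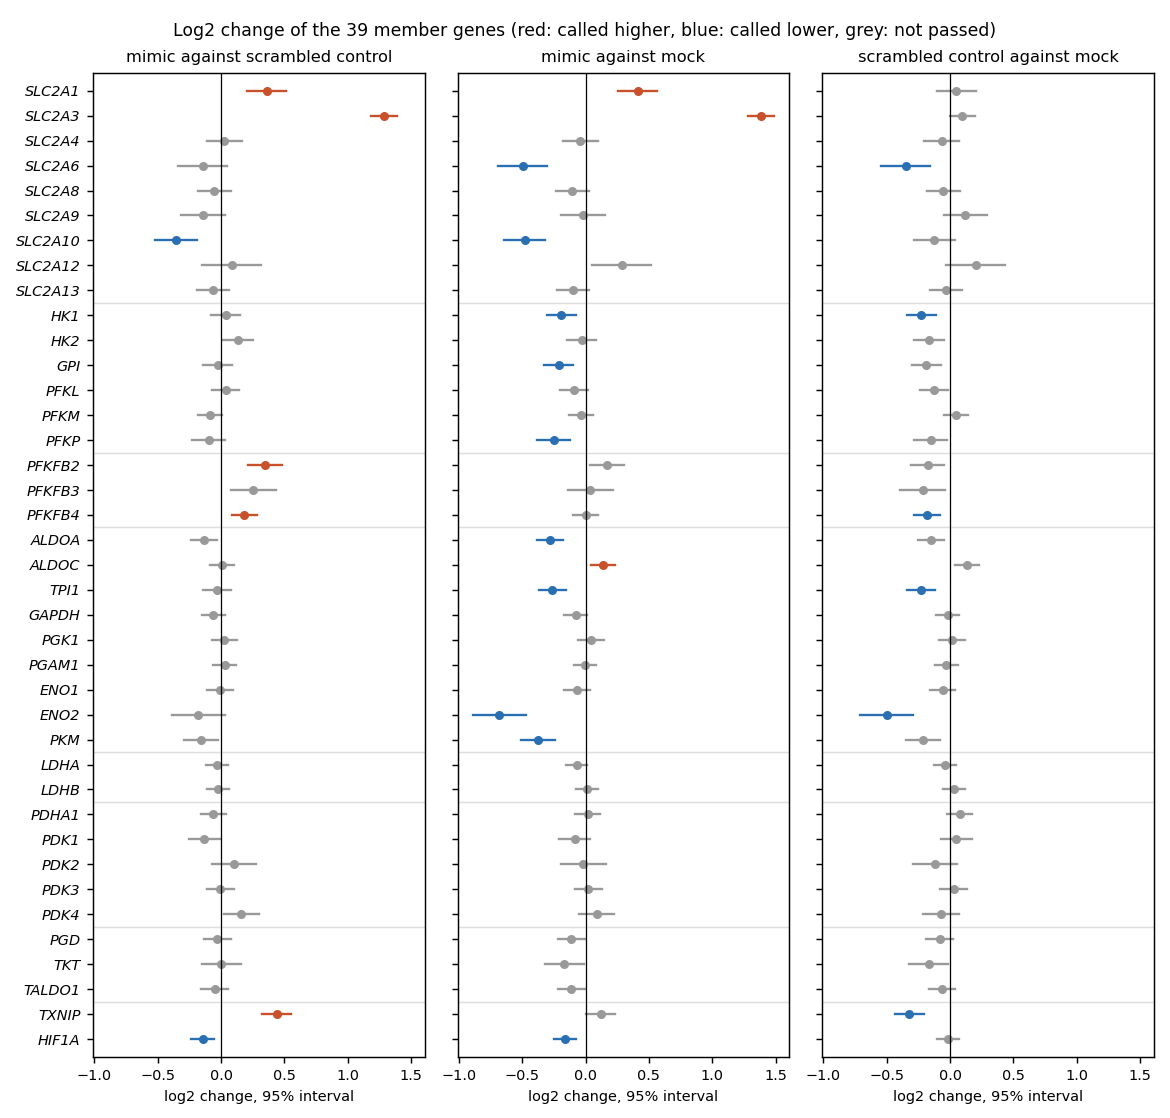
Log2 change (x axis) of each of the 39 genes (y axis, grouped by role) in the 3 comparisons, 1 per panel; points are fitted differences of group means of 3 arrays and lines their 95% intervals, red for genes called higher, blue for lower and grey for those that did not pass. SLC2A3 stands alone near 1.29 and 1.39 in the panels with the mimic, and most other genes lie within 0.5 of 0.

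Among the 9 transporters, 2 rose (22.2%, background 7.65%) and 1 fell (11.1%, background 7.02%) with the mimic against the scrambled control. Against mock 2 rose (22.2%, background 8.42%) and 2 fell (22.2%, background 10.3%). SLC2A3 encodes GLUT3, the high-affinity transporter best known from neurons. Its values were -0.12, -0.16 and -0.18 in the mock arrays, -0.03, -0.12 and -0.01 in the scrambled arrays, and 1.28, 1.20 and 1.23 in the mimic arrays. All 3 mimic arrays lay more than a log2 unit above the other 6. SLC2A3 rose by 1.29 against the scrambled control (SE 0.046, 2.44-fold, adjusted p = 7.91e-08 in limma) and by 1.39 against mock (2.61-fold, adjusted p = 4.48e-08). These were the 19th and the 12th highest changes of the 19775 genes. The scrambled control differed from mock by 0.10, which did not pass (adjusted p = 0.225). Its 3 probe sets disagreed there. Of them 1 was called higher, by 0.36 (adjusted p = 0.0108 in limma), and the others differed by -0.10 and 0.03.

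All 3 probe sets of SLC2A3 rose against the scrambled control, by 1.16, 1.42 and 1.29, and all lay in the class from 4 to 8. A further 2 probe sets carry the symbols of both SLC2A3 and its near-identical copy SLC2A14, and are not counted above. Their mimic means were higher than the scrambled means by 1.06 and 1.17. Probes for these copies cannot tell the transcripts apart with certainty, so a part of the signal from SLC2A14 was not tested.

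SLC2A1 encodes GLUT1, the basal transporter of most dividing cells. Its values were -0.22, -0.11 and 0.02 in mock, -0.03, -0.13 and 0.00 in the scrambled control, and 0.41, 0.24 and 0.27 in the mimic arrays. The mimic arrays did not overlap with the others. SLC2A1 rose by 0.36 (SE 0.069, 1.28-fold, adjusted p = 0.0048 in limma) against the scrambled control and by 0.41 (adjusted p = 0.00184) against mock. This rests on the probe set at 8 or more. The other, from 4 to 8, differed by 0.00 between mimic and scrambled control, and with the mean of both the change was 0.18 and not called (adjusted p = 0.0672). Against mock that mean gave 0.20, which was called (adjusted p = 0.0397).

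SLC2A10, which encodes GLUT10, and SLC2A6, which encodes GLUT6, a transporter of inner membranes reported in endometrial cancer, went the other way. The values of SLC2A10 were 0.08, 0.08 and 0.23 in mock, 0.09, 0.00 and -0.07 in the scrambled control, and -0.20, -0.47 and -0.38 in the mimic arrays. Every mimic array was below the other 6. SLC2A10 fell by 0.36 (SE 0.074, adjusted p = 0.00786 in limma) against the scrambled control and by 0.48 (adjusted p = 0.00116) against mock.

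SLC2A6 was instead highest in mock. Its values were 0.51, 0.34 and 0.13 in mock, 0.00, 0.07 and -0.15 in the scrambled control, and -0.19, -0.20 and -0.11 in the mimic arrays. The mimic and scrambled arrays overlapped, and both lay below mock. SLC2A6 fell by 0.49 with the mimic against mock (SE 0.088, adjusted p = 0.00262 in limma) and by 0.35 with the scrambled control against mock (adjusted p = 0.0357), and the mimic differed from the scrambled control by -0.14 (95% interval -0.34 to 0.05). The call of the scrambled control against mock ended without mock replicate 1 (change -0.26, adjusted p = 0.106), mock replicate 2 (0.097), scrambled replicate 1 (0.0781) or scrambled replicate 3 (0.12), and with only these 2 groups in the fit (0.0656).

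The remaining 5 transporters, SLC2A4, SLC2A8, SLC2A9, SLC2A12 and SLC2A13, passed in none of the 3 comparisons. Their changes ran from -0.14 in SLC2A9 to 0.08 in SLC2A12 against the scrambled control. SLC2A12, which encodes GLUT12, differed from mock by 0.28 in the mimic (95% interval 0.05 to 0.52, adjusted p = 0.0935 in limma), and without mimic replicate 1 this was 0.43 and passed (adjusted p = 0.00342). Of the 5 probe sets of SLC2A13, which encodes a myo-inositol carrier, 1 was called lower in the mimic than in the scrambled control, by -0.33.

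**Figure D2:**
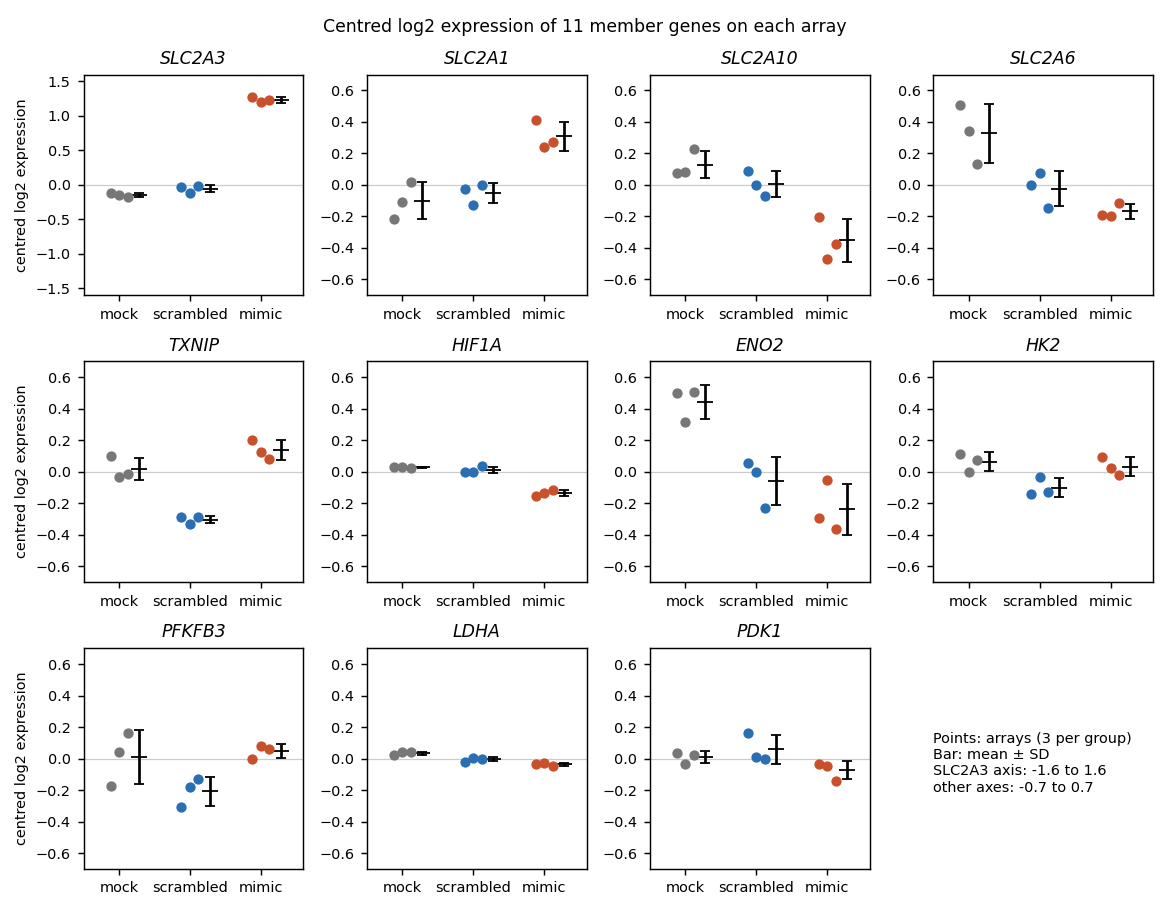
Centred log2 value (y axis) on each of the 9 arrays for the 11 genes given array by array, 1 panel per gene. Points are the mock (grey), scrambled control (blue) and mimic (orange) arrays, and black bars give each group's mean ± SD. The y axis of SLC2A3 spans a wider range than that of the other panels. SLC2A3 shows mimic arrays from 1.20 to 1.28 against -0.18 to -0.01 elsewhere, whereas TXNIP is low in the scrambled arrays and ENO2 and SLC2A6 are high in the mock arrays.

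None of the 6 enzymes that act on hexose and hexose phosphates passed in limma against the scrambled control, and 1, HK2, had an unadjusted p under 0.05. HK2 encodes the hexokinase most often raised in tumours. Its values were 0.11, 0.00 and 0.08 in mock, -0.14, -0.03 and -0.13 in the scrambled control, and 0.10, 0.03 and -0.02 in the mimic arrays. The mimic arrays lay above the scrambled arrays and overlapped with the mock arrays. The mimic differed from the scrambled control by 0.13 (95% interval 0.02 to 0.25, adjusted p = 0.129) and from mock by -0.03 (95% interval -0.15 to 0.09).

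Against mock, 3 of the 6 fell with the mimic (50%, background 10.3%, and 17.1% among genes at 8 or more). GPI, which turns glucose 6-phosphate into fructose 6-phosphate, fell by 0.21 (adjusted p = 0.0156 in limma). Its call ended without mock replicate 3 (-0.18, adjusted p = 0.0584) or mimic replicate 2 (-0.17, adjusted p = 0.0556). In the scrambled control GPI differed from mock by -0.19 and did not pass (adjusted p = 0.0517), but was called lower in 5 of 15 alternatives. GPI differed between mimic and scrambled control by -0.025. PFKP, the platelet-type phosphofructokinase, fell by 0.25 (adjusted p = 0.0134), and with the mean of its 2 probe sets it was -0.09 and not called (adjusted p = 0.187). In the scrambled control PFKP differed from mock by -0.15, which did not pass (adjusted p = 0.144). HK1, the housekeeping hexokinase, fell by 0.19 (adjusted p = 0.0257). The call of HK1 ended without mock replicate 2 (adjusted p = 0.0965), mock replicate 3 (0.0826) or mimic replicate 2 (0.0887), and with only these 2 groups in the fit (0.0553). HK1 also fell by 0.23 in the scrambled control against mock (adjusted p = 0.0241), a call that ended without mock replicate 2 or 3 or any 1 of the scrambled arrays, with adjusted p from 0.0547 to 0.0891. PFKL and PFKM, the liver and muscle phosphofructokinases, passed in none of the 3 comparisons.

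The 3 measured PFKFB genes lay higher in the mimic than in the scrambled control. Of them PFKFB2 and PFKFB4 passed (2 of 3, or 66.7%, background 7.65%). In each of the 3 the scrambled mean was also below the mock mean. PFKFB2 encodes the form that insulin signalling activates in the heart, and rose by 0.34 (SE 0.061, adjusted p = 0.00285 in limma). Its 4 probe sets disagreed, with changes of -0.05, 0.46, 0.65 and 0.32, of which 2 were called. Against mock PFKFB2 was 0.17 higher and did not pass (adjusted p = 0.0821). Of its 4 probe sets 1 was called higher there, by 0.42 (adjusted p = 0.00162), and the others differed by 0.16, -0.01 and 0.10. In the scrambled control against mock 1 was called lower, by 0.48 (adjusted p = 0.0462). The others differed there by 0.21, -0.23 and -0.22 and did not pass. PFKFB4, a form induced by low oxygen, rose by 0.18 against the scrambled control (adjusted p = 0.0198) and differed from mock by 0.00 (95% interval -0.10 to 0.10). It fell by 0.18 in the scrambled control against mock (adjusted p = 0.0349). The call with the mimic ended without scrambled replicate 2 (adjusted p = 0.063), scrambled replicate 3 (0.0603) or mimic replicate 3 (0.0682). The call without it ended without mock replicate 2 or 3, any 1 of the scrambled arrays or mimic replicate 3, with adjusted p from 0.0517 to 0.115, and with only these 2 groups in the fit (0.0552).

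PFKFB3 encodes the form with the strongest kinase activity. Its values were -0.18, 0.04 and 0.16 in mock, -0.31, -0.18 and -0.13 in the scrambled control, and 0.00, 0.08 and 0.06 in the mimic arrays. The mimic arrays lay above the scrambled arrays and within the range of mock, whose 3 arrays were the most spread. The mimic differed from the scrambled control by 0.26 and did not pass (95% interval 0.08 to 0.43, adjusted p = 0.0576 in limma). It passed without mock replicate 1 (adjusted p = 0.0189) or mock replicate 3 (0.0325), with only these 2 groups in the fit (0.0232) and among genes at 8 or more alone (0.0214). Without mock replicate 1 the scrambled control was also called lower than mock (-0.31, adjusted p = 0.0359).

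In lower glycolysis, none of the 9 enzymes passed in limma against the scrambled control, and 2 were lower at an unadjusted p under 0.05. Against mock 4 fell (44.4%, background 10.3%) and 1 rose (11.1%, background 8.42%) with the mimic. With the scrambled control 2 fell against mock (22.2%, background 5.32%). ENO2, the neuronal enolase, showed the largest fall. Its values were 0.50, 0.32 and 0.51 in mock, 0.06, 0.00 and -0.23 in the scrambled control, and -0.30, -0.06 and -0.36 in the mimic arrays. The 3 mock arrays stood above the other 6, and mimic and scrambled arrays overlapped. ENO2 fell by 0.68 with the mimic (SE 0.095, 1.6-fold, adjusted p = 0.000636 in limma) and by 0.50 with the scrambled control (1.41-fold, adjusted p = 0.0116), and the mimic differed from the scrambled control by -0.18 (95% interval -0.39 to 0.03).

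PKM, the pyruvate kinase of most tissues and tumours, fell by 0.37 with the mimic against mock (SE 0.061, adjusted p = 0.00166 in limma). Both of its probe sets were called, at -0.37 and -0.36. The scrambled control differed from mock by -0.21 and did not pass (adjusted p = 0.0575), though without scrambled replicate 2 it did (-0.28, adjusted p = 0.019). It also passed with the mean of both probe sets (-0.31, adjusted p = 0.0116) and among genes at 8 or more alone (adjusted p = 0.0167). The PKM probe set from 4 to 8 had means of 0.29 in mock, -0.12 in the scrambled control and -0.07 in the mimic. Its mimic mean was thus not below its scrambled mean. ALDOA, the main aldolase of muscle and cancer cells, fell by 0.28 with the mimic against mock (adjusted p = 0.0015) in 3 of 3 probe sets. Without mimic replicate 1 it was also called lower than the scrambled control (-0.17, adjusted p = 0.0308), and the scrambled control lower than mock (-0.15, adjusted p = 0.0445). Among genes at 8 or more alone both were called too (adjusted p = 0.0267 and 0.0189).

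TPI1, triose phosphate isomerase, fell by 0.26 with the mimic against mock (adjusted p = 0.00372 in limma) and by 0.23 with the scrambled control (adjusted p = 0.0188). The latter call ended without mock replicate 1 (adjusted p = 0.0702), scrambled replicate 1 (0.0512) or scrambled replicate 3 (0.0679). With the mean of all 3 probe sets the change against mock was -0.16 in the mimic (adjusted p = 0.0427), still called, and -0.14 in the scrambled control (adjusted p = 0.106), not called. ALDOC, the brain aldolase, was 0.14 higher in the mimic than in mock at an adjusted p of 0.0453. The call of ALDOC ended when any 1 of the 9 arrays was left out, with adjusted p from 0.0539 to 0.143.

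GAPDH, PGK1, PGAM1 and ENO1, enzymes of the same stretch, passed in none of the 3 comparisons. GAPDH differed by -0.06 between mimic and scrambled control (95% interval -0.15 to 0.03), PGK1 by 0.03 (-0.07 to 0.13), PGAM1 by 0.03 (-0.06 to 0.12) and ENO1 by -0.01 (-0.11 to 0.09). The array also holds control probe sets along the transcripts of GAPDH and ACTB, whose 3' minus 5' difference moves with RNA length. For GAPDH this difference was 0.03 ± 0.04 in mock, 0.01 ± 0.02 in the scrambled control and -0.02 ± 0.04 in the mimic arrays (SD, n = 3). For ACTB it was -0.18 ± 0.03 in mock, 0.10 ± 0.04 in the scrambled control and 0.02 ± 0.08 in the mimic arrays. The mock arrays thus stood apart for ACTB, and the part of this in the comparisons with mock was not tested.

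LDHA and LDHB, the subunits of lactate dehydrogenase, passed in none of the 3 comparisons. LDHA values were 0.02, 0.04 and 0.04 in mock, -0.02, 0.01 and 0.00 in the scrambled control, and -0.03, -0.03 and -0.05 in the mimic arrays. The groups did not overlap, and the 9 values lay between -0.05 and 0.04. The mimic differed from the scrambled control by -0.03 (95% interval -0.12 to 0.05). LDHB differed by -0.02 (95% interval -0.11 to 0.06).

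At the entry of pyruvate to the mitochondrion, none of PDHA1, a pyruvate dehydrogenase subunit, and the inhibitory kinases PDK1, PDK2, PDK3 and PDK4 passed in any comparison in limma. At an unadjusted p under 0.05, 1 of these 5 was higher and 1 lower in the mimic than in the scrambled control. PDK1, the kinase induced by low oxygen, had values of 0.04, -0.03 and 0.02 in mock, 0.16, 0.01 and 0.00 in the scrambled control, and -0.04, -0.05 and -0.14 in the mimic arrays. The mimic arrays were the lowest, by -0.13 against the scrambled control (95% interval -0.26 to -0.01, adjusted p = 0.15). These values are of the probe set at 8 or more. The others, from 4 to 8, differed by -0.01 and 0.21, and with the mean of all 3 the direction turned, to 0.02 (adjusted p = 0.847). Of the 5 probe sets of PDK3, 1 in the class from 4 to 8 was called higher in the mimic than in the scrambled control, by 0.36, while the one at 8 or more differed by -0.01. With the mean of all 5 the difference was 0.20 and did not pass (adjusted p = 0.0688).

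The 3 measured enzymes of the pentose phosphate pathway, which makes NADPH and ribose, passed in none of the comparisons in limma. Against mock all 3 were lower in the mimic at an unadjusted p under 0.05, PGD by -0.11, TKT by -0.17 and TALDO1 by -0.11. For PGD the direction turned with the mean of its 3 probe sets, to 0.01 (adjusted p = 0.91), since those from 4 to 8 differed by 0.10 and 0.04. TKT passed without mimic replicate 1 (-0.25, adjusted p = 0.0124). The probe sets of TKT, all at 8 or more, disagreed. Their mock and mimic means were 0.204 and -0.112, 0.162 and -0.155, and 0.015 and 0.151, so the last went the other way.

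**Figure D3:**
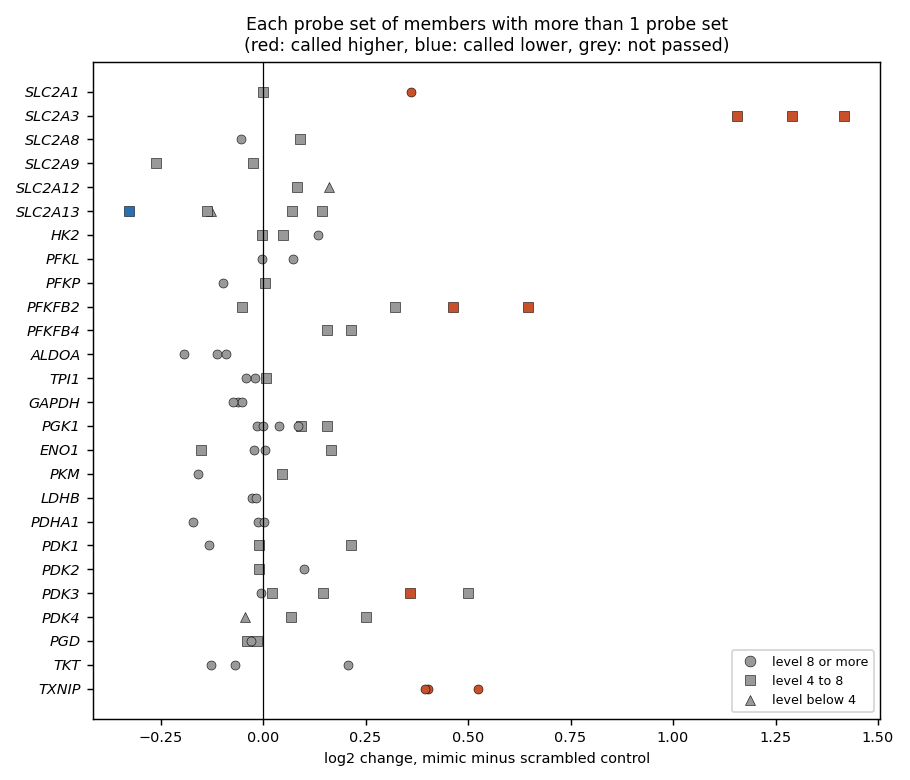
Log2 change of the mimic against the scrambled control (x axis) for each probe set of the genes with several probe sets, by gene (y axis). Control probe sets and genes with a single probe set are not drawn. Red points were called higher, blue lower and grey did not pass, and the shape of a point gives its level class. The 3 probe sets of SLC2A3 lie together between 1.16 and 1.42 and the 3 of TXNIP between 0.40 and 0.52, whereas those of PFKFB2 spread from -0.05 to 0.65.

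Both regulators were called against the scrambled control, TXNIP higher and HIF1A lower. TXNIP encodes an arrestin-like protein that removes GLUT1 from the cell surface and binds thioredoxin. Its values were 0.10, -0.03 and -0.02 in mock, -0.29, -0.33 and -0.29 in the scrambled control, and 0.20, 0.13 and 0.08 in the mimic arrays. The scrambled arrays were the lowest, apart from both other groups, and the mimic arrays overlapped with mock. TXNIP rose by 0.44 against the scrambled control (SE 0.052, 1.36-fold, adjusted p = 0.000194 in limma), fell by 0.32 in the scrambled control against mock (adjusted p = 0.00522), and differed between mimic and mock by 0.12 (95% interval 0.005 to 0.233, adjusted p = 0.144). All 3 of its probe sets gave both calls.

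The factors MondoA and ChREBP, with their partner MLX, induce TXNIP when glucose is plentiful through a paired E-box-like element upstream of the gene. The 250 bases before its start are shown because they hold such a pair, at chr1:145996580-145996829 on the minus strand of GRCh38.p14, from RefSeq. Capitals mark 2 copies of the letters CACGNG, 5 bases apart, of which the first begins 88 bases before the start.
TXNIP: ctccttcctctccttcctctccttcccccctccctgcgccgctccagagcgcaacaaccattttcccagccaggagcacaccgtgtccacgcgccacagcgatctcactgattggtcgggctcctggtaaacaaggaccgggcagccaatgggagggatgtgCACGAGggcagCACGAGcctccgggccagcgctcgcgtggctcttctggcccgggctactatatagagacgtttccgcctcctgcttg
The pair was looked for after the values of TXNIP were seen. On both strands it occurs in 20 of 27305 promoters of 300 bases (0.0732%), each from 250 bases before the start to 50 after it, and in 1 of the 37 listed genes with an entry. The match is a description of these letters only.

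Among 9 genes of glucose sensing by MondoA and ChREBP, 1 was called higher (11.1%, background 7.65%) and 1 lower (11.1%, background 7.02%) against the scrambled control. ARRDC4, an arrestin-like relative of TXNIP and a known MondoA target, rose by 0.52 (adjusted p = 0.000563 in limma). As with TXNIP, it fell in the scrambled control against mock, by 0.29 (adjusted p = 0.03), and its difference between mimic and mock, 0.22, did not pass (adjusted p = 0.0507). No such pair of motifs is in the window of ARRDC4. MYC, the proto-oncogene that drives glycolytic genes, fell by 0.22 against the scrambled control (adjusted p = 0.0202) and by 0.33 against mock (adjusted p = 0.0018).

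HIF1A was measured by 1 probe set at 8 or more. Its values were 0.03, 0.03 and 0.02 in mock, -0.01, 0.00 and 0.03 in the scrambled control, and -0.16, -0.13 and -0.12 in the mimic arrays. The mimic arrays were below all 6 others. HIF1A fell by 0.15 (SE 0.04, 1.11-fold, adjusted p = 0.0305 in limma) against the scrambled control and by 0.16 (adjusted p = 0.0145) against mock. Leaving out mock replicate 2 ended the first call (adjusted p = 0.0543), as did leaving out any 1 of the scrambled or mimic arrays (0.0623 to 0.0974), and leaving out mock replicate 2 ended the second (0.054). The call against the scrambled control ended in 11 of 15 alternatives, while the direction stayed.

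The letters of the hypoxia response element and the E-box were counted in the same promoters, on both strands. ACGTG or GCGTG, the core of that element, occurred in 24 of the 37 listed genes with an entry, beside 48.4% of all promoters. ACGTG alone occurred in 13 of 37 (21.6% of all), GCGTG in 18 of 37 (36.3% of all), and the E-box CACGTG, which contains ACGTG, in 4 of 37 (7.43% of all). ACGTG was held by ENO2 and SLC2A10, and also by GAPDH, PGK1 and LDHA, which passed in no comparison. GCGTG was held by SLC2A1, TXNIP and HIF1A, and also by LDHB and PDHA1, which passed in none. A link of these letters to the changes was not tested.

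Genes around HIF were mixed. Of 13 HIF regulators 3 were higher (23.1%, where 7.65% of all genes were) and 1 lower (7.69%, where 7.02% were) against the scrambled control. Their median was 0.03. EPAS1, which encodes the HIF-2 alpha subunit, rose by 0.61 against the scrambled control (adjusted p = 2.26e-05 in limma) and by 0.35 against mock, and fell by 0.26 in the scrambled control against mock (adjusted p = 0.0134). ELOC, a subunit of the VHL ubiquitin ligase, fell by 0.30 with the mimic against the scrambled control. Of 22 hypoxia-responsive genes outside glycolysis 6 were higher (27.3%, where 7.65% of all genes were) and 4 lower (18.2%, where 7.02% were) against the scrambled control, with a median of 0.04. Against mock 2 were higher (9.09%, where 8.42% of all genes were) and 7 lower (31.8%, where 10.3% were) with the mimic. With the scrambled control against mock none was called higher in limma (2 at an unadjusted p under 0.05) and 6 were lower (27.3%, where 5.32% of all genes were), with a median of -0.14. With the mimic against the scrambled control P4HA2, a collagen prolyl hydroxylase subunit, rose by 0.62. BNIP3, a mitophagy receptor, fell there by 0.36, NDRG1 by 0.33 and CA12, a surface carbonic anhydrase, by 0.33. P4HA2 rose by 0.32 with the mimic against mock and fell by 0.30 in the scrambled control against mock (adjusted p = 0.00914 in limma). BNIP3, NDRG1 and CA12 fell with the mimic against mock, by 0.29, 0.50 and 0.49. They did not pass in the scrambled control against mock.

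Of 30 further transport, glycolysis and gluconeogenesis genes 2 were higher (6.67%, background 7.65%) and 3 lower (10%, background 7.02%) against the scrambled control. With the mimic against mock 1 was higher (3.33%, background 8.42%) and 1 lower (3.33%, background 10.3%). PGM1, which links glycogen to glucose 6-phosphate, rose by 0.30 against the scrambled control (adjusted p = 0.00105 in limma). HKDC1, a hexokinase relative, rose by 0.33 against the scrambled control but was below mock in both other groups. Its difference from mock was -0.18 with the mimic, which did not pass, and -0.51 with the scrambled control (adjusted p = 0.00157). SLC2A11, which encodes GLUT11, fell by 0.32 against the scrambled control and by 0.40 against mock. Of 10 further pentose phosphate enzymes 1 was higher (10%, background 7.65%) and 2 lower (20%, background 7.02%) against the scrambled control. The former was TKTL1 (0.30), and the latter were RBKS (-0.19) and RPIA (-0.16). With the mimic against mock 1 (RBKS, -0.14) was lower (10%, background 10.3%).

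Of 15 further genes of pyruvate entry and monocarboxylate transport 1 was higher (6.67%, background 7.65%) and 3 lower (20%, background 7.02%) against the scrambled control. PDP1, the phosphatase that reactivates pyruvate dehydrogenase, rose by 0.50 (SE 0.046, adjusted p = 3.59e-05 in limma) and by 0.41 against mock. PDPR, its regulatory partner, fell by 0.21 and 0.41. PDPR also fell by 0.21 in the scrambled control against mock (adjusted p = 0.0249). SLC16A4, a monocarboxylate carrier relative, fell by 0.44 (adjusted p = 0.000121) and by 0.43 against mock. In the tricarboxylic acid cycle and its malic enzymes 1 of 20 was higher (5%, background 7.65%) and 3 lower (15%, background 7.02%) against the scrambled control. ME1, the cytosolic malic enzyme, which makes NADPH, fell by 0.53 there (adjusted p = 8.87e-05) and by 0.44 against mock. Of 17 hexosamine and glycogen genes 2 were higher (11.8%, background 7.65%) and 2 lower (11.8%, background 7.02%) against the scrambled control. PPP1R3C, a scaffold that promotes glycogen synthesis, fell by 0.56 there (adjusted p = 5.62e-05) and by 0.36 against mock. It rose by 0.20 in the scrambled control against mock (adjusted p = 0.0467).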

How the data were processed

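RNA of 9 Hec50 samples, 3 arrays in each of 3 groups, was hybridised to Affymetrix arrays after biotin labelling, per the labels' protocols. The authors' deposited table holds log2 values for 54675 probe sets, centred on each probe set's median. The base is not stated. Probe summarisation and normalization are not given in the sources used here. Gene symbols came from the platform's probe table; probe sets with several symbols (1801) were left out. With no levels, signal over background is unknown; precision is limited by there being 3 arrays a group. A level class (below 4, 4 to 8, 8 or more) was taken from the rounding step of the stored numbers.

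Groups were fitted with limma 3.58.1 in R 4.3.3 (lmFit, eBayes) over 19775 genes, and separately over 41097 probe sets with 1 symbol, control probe sets with a symbol included. The scripts were tested on simulated data. For the mimic against the scrambled control, 38% of log2 changes of 0.25 set there and 98% of those of 0.5 were called. Most changes of 0.25 were thus missed. Array values are given for genes called with a change of at least 0.4 in a comparison, and for SLC2A1, HK2, PFKFB3, LDHA, PDK1, TXNIP and HIF1A; of each pathway list up to 4 genes with the smallest p may be named. The members and lists were chosen with earlier results of these data known. Alternatives were the mean of all probe sets, quantile normalization, genes at 8 or more only, 2 groups only, robust and trend eBayes, a replicate block, and leaving out each array. Sequences came from RefSeq (GRCh38.p14), with a promoter for 37 of the 41 listed genes.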

Additional observations from a re-analysis of the deposited data

How the results depend on the processing

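Of 26 calls of a gene in a comparison, 14 held under every alternative that gave the gene a value; no named gene reversed a called direction. For genes called lower in the mimic than in the scrambled control (2), the count was 1 under quantile normalization, with 2 groups only, with robust and trend eBayes and with the replicate block, and 1 to 2 when an array was left out. With genes at 8 or more only, 3 genes were called higher against the scrambled control, 1 gene higher against mock, and 6 and 4 probe sets higher in these comparisons; fewer genes were tested there. When an array was left out, genes lower in the scrambled control than in mock numbered 2 to 8, and probe sets lower 1 to 2 for mimic against scrambled control, 10 to 16 for mimic against mock and 1 to 8 for scrambled control against mock. The last count was 5 with 2 groups only and 5 with the replicate block. With that block PFKFB3 was called higher against the scrambled control (adjusted p = 0.0201), and the calls of HIF1A there, of ALDOC in the mimic and of PFKFB4 in the scrambled control against mock ended (0.0645, 0.085 and 0.0626). Replicate numbers did not pair the arrays: same-numbered arrays correlated at -0.15 to 0.11 in their deviations from group means. Other causes of lost calls were not tested. The centred values give no signal over background, so what low signal hides is unknown.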
